A study of Mus musculus with 6 samples.

Results

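The core autophagy machinery was examined in mouse CD4 T cells kept short of arginine. It was taken as 40 named genes covering initiation, membrane supply, nucleation, conjugation, the ATG8 proteins, cargo receptors and lysosomal regulators. Of these, 39 were matched to a probe set of the array that carried their symbol alone, out of 22180 such genes in all, and every one of the 39 passed the filter on dim genes. Optn, a cargo receptor, was not analysed here.

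The cells came from OT-II transgenic mice, whose T cell receptor recognises an ovalbumin peptide, aged 12 to 16 weeks when spleen and lymph nodes were taken. CD4 T cells were purified by negative selection and cultured for 72 hours beside antigen-presenting cells, with the peptide, in RPMI medium and 10% dialyzed serum in both groups. The control group had medium with its normal arginine and the low arginine group had medium with 1% of it (12 uM). CD4 cells were purified again before total RNA was taken, with 3 arrays in each group and 6 mice named for the study. The labels call the arrays biological replicates without saying which mice each holds, so p-values measure the spread between these arrays. All cells shared that receptor and were read at a single time.

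Autophagy encloses cytoplasm in a double membrane, the autophagosome, and delivers it to the lysosome for breakdown. The Ulk1 kinase complex starts the process, a lipid kinase complex built on Becn1 and Pik3c3 marks the membrane, and a pair of ubiquitin-like conjugation reactions attach ATG8 proteins to it. The nutrient-sensing kinase complex mTORC1 holds back Ulk1 and the transcription factors Tfeb and Tfe3 while amino acids, arginine among them, are plentiful. Much of this control acts on proteins, which arrays do not measure.

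Arrays are written by their replicate number, control 1 to 3 and low arginine 1 to 3. Values are log2 expression values as deposited, and a change is the low arginine mean minus the control mean on that scale. The 6 arrays had medians between 2.97 and 3.03, and genes with a mean below 2.48 over all arrays were left out as dim. Brightness depends on the probes, so levels are compared between arrays and not between genes. A gene passed the threshold at a Benjamini-Hochberg adjusted p below 0.05 in limma's moderated test over all 14787 genes tested.

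Most of the autophagy genes differed little between the media, and 4 of 39 passed the threshold. The ATG8 gene Gabarapl1 fell by 1.61 on the log2 scale and the lipid scramblase gene Atg9a fell by 0.81, while the conjugation enzyme gene Atg10 rose by 0.85 and the Becn1 regulator Ambra1 rose by 0.43. These 4 are 10.3% of the autophagy genes, close to the 12.2% of all genes tested that passed. Among all genes 5.19% rose and 6.98% fell (767 and 1032 genes, or 535 and 1190 under 75th percentile centring), against 2 rises and 2 falls here (5.13% each). The low arginine and control arrays did not overlap for 12 of the 39 genes (30.8%), against 32.2% of all genes. The median change was 0.03 over the autophagy genes and 0.01 over all genes, with 20 autophagy genes above 0 and 19 below.

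Interval widths show how large a change the data allow for the rest. The 95% interval lay within a 1.5-fold change either way for 28 of the 39 genes (71.8%), against 57.8% of all genes. It lay within a 2-fold change for 36 of them (92.3%, against 86.3%), the exceptions being Gabarapl1, Atg9a and Atg10. Only Gabarapl1 changed more than 2-fold, where 4.53% of all genes did. Before adjustment, p was below 0.05 for 10 of the genes (25.6%, against 27.3%), the 4 named above and Atg13, Atg2b, Wipi1, Atg7, Atg4a and Map1lc3b.

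**Figure D1:**
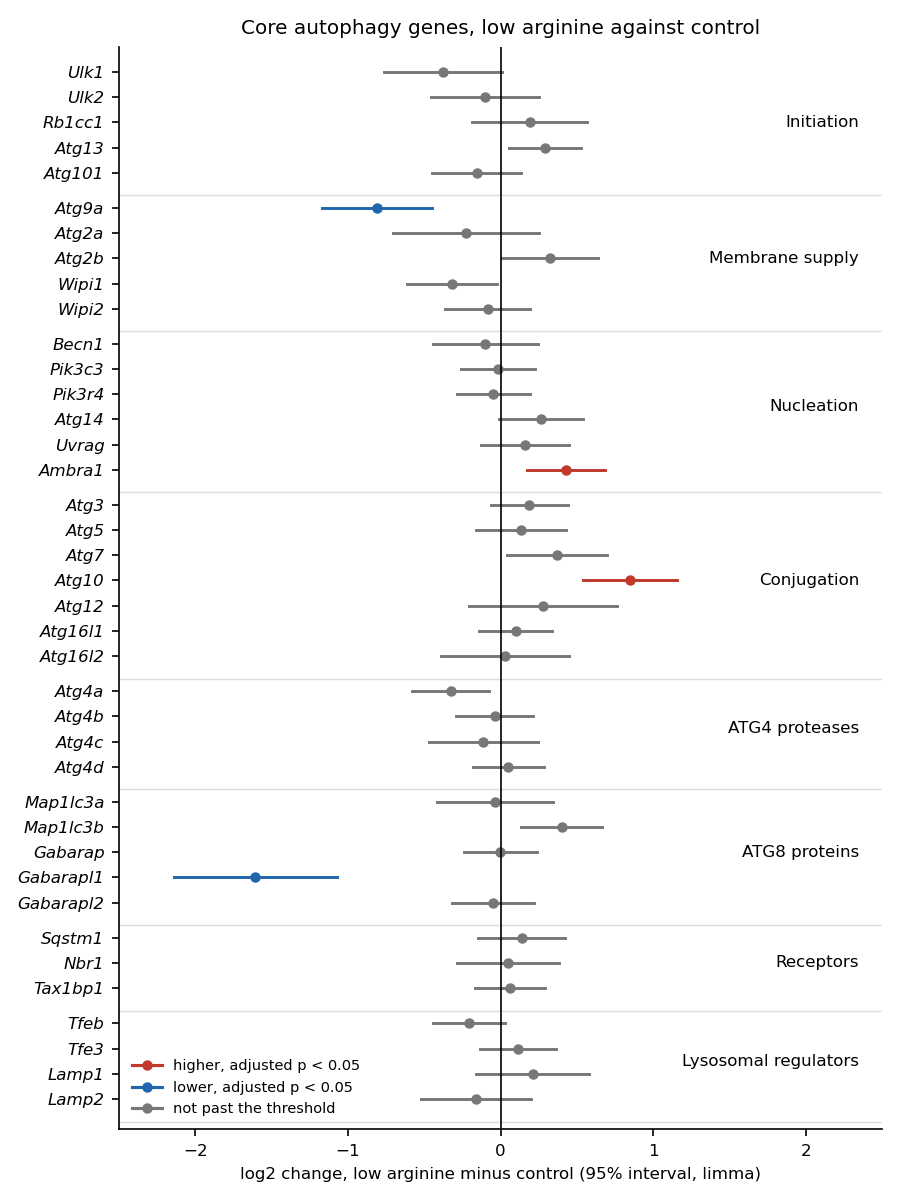
Log2 change (low arginine minus control) of the 39 autophagy genes with its 95% interval from limma, n = 3 arrays per group, ordered by role. Gabarapl1 and Atg9a (blue) lie below 0 and Atg10 and Ambra1 (red) above it past the threshold, and the grey intervals belong to genes that did not pass.

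The initiation complex held no gene past limma's threshold, and 1 of its 5 genes, Atg13, had an unadjusted p below 0.05. Ulk1, its kinase, read 6.11, 6.23 and 6.67 in control 1, 2 and 3 and 5.94, 5.83 and 6.10 in the low arginine arrays. All low arginine values lay below all control values, though control 1 and low arginine 3 were nearly equal, and the change of -0.38 (95% interval -0.76 to 0.01) had an adjusted p of 0.19 by limma. Its relative Ulk2 changed by -0.10. Atg13, the subunit that joins the kinase to its scaffold, read 7.20, 7.23 and 7.16 in the controls and 7.56, 7.42 and 7.49 in low arginine. Those groups did not overlap either, with a change of 0.29 (limma adjusted p = 0.105). The scaffold Rb1cc1 changed by 0.19 and Atg101, which stabilises Atg13, by -0.16, both with overlapping groups.

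Among the genes of membrane supply, Atg9a fell. Its protein is a lipid scramblase that travels in the vesicles from which the autophagosome grows. Control replicates 1, 2 and 3 read 5.70, 6.02 and 6.28, and the low arginine 5.26, 5.17 and 5.13. The low arginine arrays lay close together and below every control, and the controls were spread over more than the distance between control 1 and the nearest low arginine array. The mean went from 6.00 ± 0.29 (SD, n = 3) to 5.19 ± 0.07, a fall of 1.75-fold (95% interval -1.17 to -0.45 on the log2 scale, limma adjusted p = 0.0173). The call ended when control 2 (adjusted p = 0.0742), low arginine 2 (0.0773) or low arginine 3 (0.0754) was left out, with changes of -0.80, -0.80 and -0.78.

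The lipid transfer proteins Atg2a and Atg2b, which pass lipid from the endoplasmic reticulum to the growing membrane, changed by -0.23 (adjusted p = 0.556) and 0.32 (0.169). Control replicate 1 set the spread of Atg2a, at 6.05 against 6.68 and 6.86 in the other controls. Without that array Atg2a passed with a change of -0.47 (limma adjusted p = 0.0273). Wipi1, which binds the lipid made by Pik3c3, behaved the same way, at -0.32 (0.155) with all arrays and -0.42 (0.0271) without control 1. Its levels of 2.58 to 3.10 lay near the limit for dim genes. Wipi2, which recruits the conjugation machinery, changed by -0.08.

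The nucleation complex had 1 rise, in Ambra1, a scaffold that binds Becn1 and also directs cyclin D proteins to degradation. Ambra1 read 7.38, 7.27 and 7.46 in the controls and 7.90, 7.73 and 7.77 in low arginine, so every low arginine array was above every control. The mean went from 7.37 ± 0.10 to 7.80 ± 0.09 (SD, n = 3), 1.35-fold, with an adjusted p of 0.0433 by limma, near the threshold. It kept its call when control 1 was left out (adjusted p = 0.034) and lost it without control 2 (0.15), control 3 (0.0586) or low arginine 1 (0.137), 2 (0.112) or 3 (0.127). The call also ended with the replicate number as a block (0.0711), with arrays centred on their median (0.0555) or 75th percentile (0.0704), and with a trended and robust prior (0.053). The change stayed between 0.37 and 0.50 throughout.

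Becn1, the scaffold of the complex, read 6.96, 6.59 and 6.43 in the controls and 6.59, 6.58 and 6.51 in low arginine. The low arginine values fell inside the control range, and the change was -0.10 (95% interval -0.45 to 0.25, limma adjusted p = 0.738). The lipid kinase Pik3c3 changed by -0.02 and its regulatory subunit Pik3r4 by -0.05, with intervals of -0.26 to 0.23 and -0.29 to 0.19. Atg14, which takes the complex to the autophagosome, read 4.31 to 4.43 in the controls and 4.49 to 4.80 in low arginine, without overlap (change 0.26, adjusted p = 0.203). Uvrag, the partner used at endosomes, changed by 0.16 with overlapping groups.

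All 7 conjugation genes had a change above 0, from 0.03 to 0.85, as did 7624 of all 14787 genes, though 1 of the 7 passed. Atg10 is the E2-like enzyme that links Atg12 to Atg5. It read 3.59, 3.97 and 3.86 in control 1, 2 and 3 and 4.72, 4.53 and 4.71 in the low arginine arrays. Every low arginine array stood well above the highest control. The mean went from 3.81 ± 0.20 to 4.65 ± 0.11 (SD, n = 3), 1.80-fold (95% interval 0.54 to 1.16 on the log2 scale, limma adjusted p = 0.00955). Atg10 passed in all 15 alternatives, the highest adjusted p being 0.048 without low arginine 3.

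The E1-like enzyme Atg7, which activates both Atg12 and the ATG8 proteins, read 5.50, 5.27 and 5.10 in the controls and 5.83, 5.54 and 5.61 in low arginine. The groups did not overlap, though low arginine 2 lay just above control 1, and the change of 0.37 had an adjusted p of 0.137 by limma. Without control 1 it passed, at 0.48 (0.0343). Atg3, the E2-like enzyme for ATG8 proteins, changed by 0.19 (adjusted p = 0.327), Atg5 by 0.13 and Atg12 by 0.28. Of the platform proteins that bring the conjugates to the membrane, Atg16l1 changed by 0.10 and its relative Atg16l2 by 0.03. The sign of Atg16l2 was not stable and turned negative in 3 of 3 scalings. That of Atg12 turned slightly negative with array weights (-0.0068).

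Of the 5 ATG8 genes, Gabarapl1 fell and the other members did not pass the threshold. Their proteins are attached to lipid on the autophagosome and hold cargo receptors. Gabarapl1 read 4.79, 5.17 and 5.16 in control 1, 2 and 3 and 3.60, 3.77 and 2.92 in the low arginine arrays. All low arginine arrays lay below the lowest control, and low arginine 3 was the lowest of all. The mean went from 5.04 ± 0.22 to 3.43 ± 0.45 (SD, n = 3), a fall of 3.05-fold (95% interval -2.14 to -1.07 on the log2 scale, limma adjusted p = 0.00702). It passed in all 15 alternatives, with changes of -1.78 to -1.35 and adjusted p up to 0.0436, the last without control 2. The level on low arginine 3 came close to the dim limit of 2.48, so the size of the fall is uncertain.

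Map1lc3b, which encodes the LC3B protein commonly followed as a marker of autophagosomes, read 7.34, 7.60 and 7.58 in the controls and 7.91, 7.86 and 7.95 in low arginine. Every low arginine array was above every control. The means were 7.51 ± 0.14 and 7.91 ± 0.04 (SD, n = 3), a change of 0.40 (95% interval 0.14 to 0.66) with an adjusted p of 0.0593 by limma, just outside the threshold. It passed in 1 of 15 alternatives, with array weights (0.014). Gabarap, by contrast, read 9.60, 9.61 and 9.67 in the controls and 9.53, 9.69 and 9.66 in low arginine. Those groups overlapped throughout, with a change of -0.0021 and an interval of -0.24 to 0.24. A second probe set of Gabarap changed by -0.06. Gabarapl2 changed by -0.05 (interval -0.32 to 0.22) and Map1lc3a by -0.04 at levels of 2.73 to 3.22, near the dim limit. Differences between members of the family were not tested.

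None of the 4 ATG4 genes passed in limma, and 1 of them, Atg4a, had an unadjusted p below 0.05. These proteases trim new ATG8 proteins and release them from membranes. Atg4a read 6.60, 6.53 and 6.77 in the controls and 6.29, 6.34 and 6.29 in low arginine. Its groups did not overlap, and the change of -0.33 (95% interval -0.58 to -0.08) had an adjusted p of 0.0951 by limma. It passed with array weights (0.0442). Atg4b changed by -0.04, Atg4c by -0.11 and Atg4d by 0.05, all with overlapping groups.

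**Figure D2:**
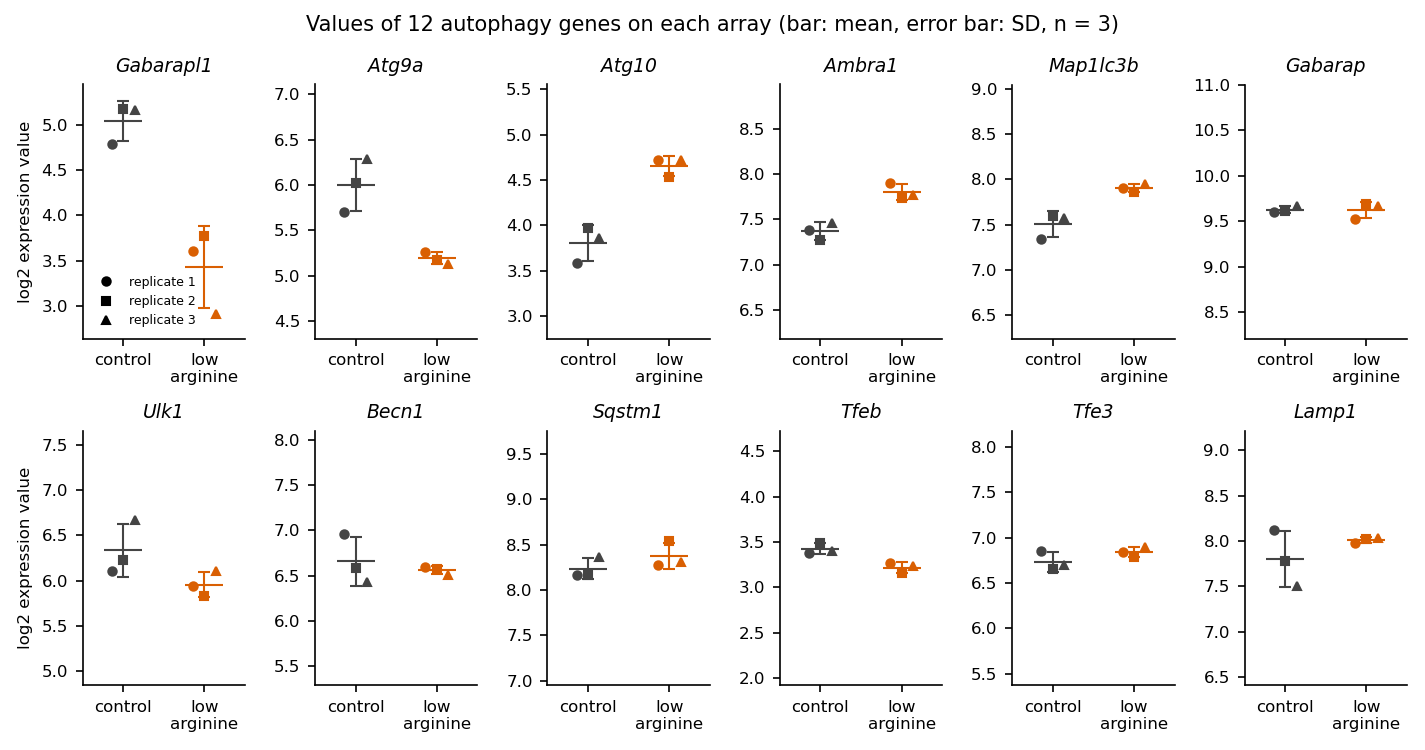
Log2 expression values of 12 autophagy genes on each of the 6 arrays, with the group mean and SD (n = 3) and a separate vertical scale of equal span in each panel. Gabarapl1, Atg9a, Ulk1 and Tfeb lie lower and Atg10, Ambra1 and Map1lc3b higher in low arginine without overlap, by very little for Ulk1. Of these, Ulk1, Tfeb and Map1lc3b did not pass the threshold. Gabarap, Becn1, Sqstm1, Tfe3 and Lamp1 overlap between the groups.

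Cargo receptors carry ubiquitin-tagged proteins to the ATG8 proteins. Sqstm1, which encodes p62, read 8.16, 8.17 and 8.37 in the controls and 8.27, 8.54 and 8.31 in low arginine. The groups overlapped, and the change was 0.14 (95% interval -0.15 to 0.42, limma adjusted p = 0.538). Nbr1 changed by 0.05 and Tax1bp1 by 0.06, the latter with an interval of -0.17 to 0.29. Both of these changes became slightly negative under 75th percentile centring.

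Tfeb and Tfe3, the transcription factors that switch on lysosomal and autophagy genes, did not pass. Tfeb read 3.38, 3.49 and 3.40 in the controls and 3.27, 3.15 and 3.24 in low arginine. These groups did not overlap at this low level (change -0.21, 95% interval -0.44 to 0.03, limma adjusted p = 0.243). Tfeb passed in 1 of 15 alternatives, with array weights (limma adjusted p = 0.0249). Tfe3 read 6.85, 6.65 and 6.69 in the controls and 6.84, 6.79 and 6.90 in low arginine. Its groups overlapped, with a change of 0.11 and an adjusted p of 0.575. Lamp1, a main protein of the lysosomal membrane, read 8.12, 7.78 and 7.51 in the controls and 7.97, 8.02 and 8.03 in low arginine. The low arginine values lay inside the wide control range (change 0.21, adjusted p = 0.468). Lamp2, which also serves chaperone-mediated autophagy, changed by -0.16 with overlapping groups.

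Promoter windows of the autophagy genes were read from RefSeq (assembly GRCm38.p6), from 250 bases before to 50 after a start site, and 34 of the 40 genes had one. Both strands were searched for 4 motifs, and a gene counted if any of its windows held a match. CACGTG, the core of the site bound by Tfeb and Tfe3, occurred in 5 of 34 genes (14.7%), against 8.09% of all 27025 genes with a window. Those 27025 include genes that were dim or unmatched on the array, so the shares of all genes are not a like-for-like background. Among genes tested here with a window, 1260 held CACGTG and 10228 did not, beside 5 and 28 autophagy genes. Its extended form TCACGTGA, which contains it, occurred in Atg3 alone (2.94%, against 1.12%). TGATGNAA, a form of the site bound by Atf4 with C/EBP partners, occurred in 0 of 34 (4.51% of all genes). TGACGTCA, the cAMP response element, occurred in Atg5 and Atg16l2 (5.88%, against 2.03%). Among genes tested with a window, 217 held TCACGTGA and 11271 did not. For TGATGNAA these numbers were 347 and 11141, and for TGACGTCA 376 and 11112. A match is a description of letters and not a measured binding site.

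The CACGTG genes were Atg14, Atg3, Atg5, Atg7 and Lamp1. None of them passed the threshold, and their changes ran from 0.13 to 0.37, all above 0, as were 12 of the 28 tested genes whose windows lacked it. Over all 1260 genes tested with CACGTG in a window, 56.1% had a change above 0, with a median of 0.05, against 50.5% of the 10228 without. No window of the 4 genes past the threshold held any of the motifs.

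Windows of Lamp1 and Atg3 are shown because they held the most CACGTG matches, and that of Gabarapl1 because it had the largest change. They were chosen after these values were seen. The Lamp1 window lies at chr8:13158911-13159210, the Atg3 window at chr16:45158579-45158878 and the Gabarapl1 window at chr6:129532942-129533241, all on the plus strand of GRCm38.p6. Capitals mark CACGTG, which begins 61, 45, 28 and 15 bases before the start site in Lamp1. In Atg3 they mark CACGTG 94 bases before it and TCACGTGA 72 bases before it. The Gabarapl1 window has no capitals.
Lamp1: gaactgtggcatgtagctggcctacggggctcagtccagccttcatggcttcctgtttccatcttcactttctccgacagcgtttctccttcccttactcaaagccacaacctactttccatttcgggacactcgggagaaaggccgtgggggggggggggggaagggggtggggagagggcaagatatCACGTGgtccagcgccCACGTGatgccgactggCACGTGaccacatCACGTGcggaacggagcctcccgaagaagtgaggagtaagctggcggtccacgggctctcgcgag
Atg3: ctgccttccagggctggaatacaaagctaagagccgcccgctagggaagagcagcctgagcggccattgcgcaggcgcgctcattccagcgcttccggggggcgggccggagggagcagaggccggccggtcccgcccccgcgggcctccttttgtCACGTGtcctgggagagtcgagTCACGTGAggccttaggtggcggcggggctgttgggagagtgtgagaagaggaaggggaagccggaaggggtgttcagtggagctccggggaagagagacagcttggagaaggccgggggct
Gabarapl1: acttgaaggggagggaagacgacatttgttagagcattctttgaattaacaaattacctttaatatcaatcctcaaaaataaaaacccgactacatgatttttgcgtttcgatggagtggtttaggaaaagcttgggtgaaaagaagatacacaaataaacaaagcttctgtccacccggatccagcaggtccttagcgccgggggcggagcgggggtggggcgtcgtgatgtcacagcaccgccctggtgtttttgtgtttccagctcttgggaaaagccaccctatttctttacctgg

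Genes around the core machinery were read from 7 further lists, covering 146 genes tested. Of these, 7 rose and 15 fell (15.1%, against 12.2% of all genes). Among 21 accessory autophagy genes, Vmp1, a scramblase of the endoplasmic reticulum needed for autophagosomes to form, fell by 1.03 (limma adjusted p = 0.0092). Sh3glb1, which binds Becn1 through Uvrag, fell by 0.62 (0.0271), and Epg5, a tether between autophagosomes and lysosomes, rose by 0.62 (0.0117). The median of that list was -0.12. Vmp1 passed in all 15 alternatives. Leaving out control 2, low arginine 2 or low arginine 3 ended the call of Epg5 (adjusted p up to 0.0572). Sh3glb1 kept its call only where the array left out was control 1 (up to 0.108 with the rest).

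Of 13 receptors for mitochondria and other organelles, 1 passed. Bnip3, a mitophagy receptor induced by hypoxia, fell by 4.11 (adjusted p = 3.24e-04). The 14 genes of autophagosome and lysosome fusion also had 1 call, the endosomal SNARE Stx7, which fell by 0.56 (0.0492). Stx7 lost its call when any array but control 1 was left out (up to 0.15), with the replicate block, with a trended and robust prior and with no dim filter. Bnip3 lay at 7.40 ± 0.19 (SD, n = 3) in the controls and 3.29 ± 0.45 in low arginine, near the dim limit.

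The nutrient-sensing list, mTORC1 and AMPK with their regulators at the lysosome, had 3 rises and 4 falls among 36 genes (median -0.02). Castor1, the cytosolic arginine sensor that inhibits mTORC1 when arginine is absent, fell by 1.27, from 6.87 ± 0.20 in the controls to 5.59 ± 0.06 in low arginine (SD, n = 3), at an adjusted p of 0.00222 by limma. Its partner Castor2 fell by 0.94 (0.0286), the mTORC1 inhibitor Ddit4 fell by 1.64 (0.0161) and the Ragulator subunit Lamtor2 fell by 0.80 (0.0121). Sesn2, a leucine sensor that restrains mTORC1, rose by 1.55 (0.00318), the GTPase Rragd by 0.75 (0.0396) and the GATOR1 subunit Nprl3 by 0.73 (0.0398). The kinase Mtor itself changed by 0.30 (adjusted p = 0.132).

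Castor1 and Sesn2 passed in all 15 alternatives. Leaving out control 2 ended the calls of Castor2, Ddit4, Lamtor2, Rragd and Nprl3. Castor2 was also lost with control 3, low arginine 1 or low arginine 2 left out (up to 0.115), Ddit4 with low arginine 1 or 3 (up to 0.073) and Lamtor2 with low arginine 2 or 3 (up to 0.0572). Rragd and Nprl3 were lost when any array but control 1 was left out (up to 0.143 each) and with centring on the 75th percentile, Rragd also with the replicate block and Nprl3 after quantile normalization.

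Lysosomal enzymes and membrane proteins had 1 rise and 4 falls among 33 genes (15.2% past the threshold, against 12.2% of all genes). Their median change was -0.18, with 24 of 33 changes below 0, against 0.01 and 7163 of 14787 over all genes. Smpd1, the acid sphingomyelinase, fell by 1.26 (limma adjusted p = 0.0117), and the acid ceramidase Asah1 fell by 0.91 (0.0127). Grn, which encodes progranulin, fell by 0.75 (0.0346), and the alpha-galactosidase Gla fell by 0.74 (0.0114). Laptm4a, a membrane protein of late endosomes, rose by 0.47 (0.0275). Leaving out low arginine 2 ended all 5 of these calls (up to 0.0652 for Asah1). Leaving out control 2 ended those of Gla (up to 0.0572), Smpd1 (up to 0.0591), Grn (up to 0.133) and Laptm4a (up to 0.112), and leaving out low arginine 3 those of Smpd1, Grn and Laptm4a. Grn was lost too when low arginine 1 was left out, and Laptm4a with control 3 left out, with the replicate block or with 75th percentile centring. Of 15 subunits of the vacuolar ATPase, which acidifies the lysosome, Atp6v0b fell by 0.39 (0.0453). Atp6v0b was lost when any array but control 1 was left out (up to 0.142), with the replicate block and with a trended and robust prior.

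Transcription factors linked to autophagy genes had 2 rises and 2 falls among 14. Foxo1, which also maintains quiescence in T cells, rose by 0.57, its means being 7.85 ± 0.05 and 8.42 ± 0.06 (SD, n = 3), at an adjusted p of 0.0129 by limma. Nupr1, a stress-induced cofactor, rose from 6.18 to 7.68 (0.0288). Xbp1, of the unfolded protein response, fell by 0.76 (0.0157), and Hif1a, of the hypoxia response, fell by 0.49 (0.035). Foxo3 changed by 0.06 and Atf4 by 0.14, neither past the threshold. The Foxo1 call ended with control 2, low arginine 2 or low arginine 3 left out (up to 0.0638) and with the mean of its probe sets. Leaving out any low arginine array ended the calls of Nupr1 (up to 0.112), Xbp1 (up to 0.0754) and Hif1a (up to 0.133). Those of Xbp1 and Hif1a also ended with control 2 left out, and Hif1a's with the replicate block.

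**Figure D3:**
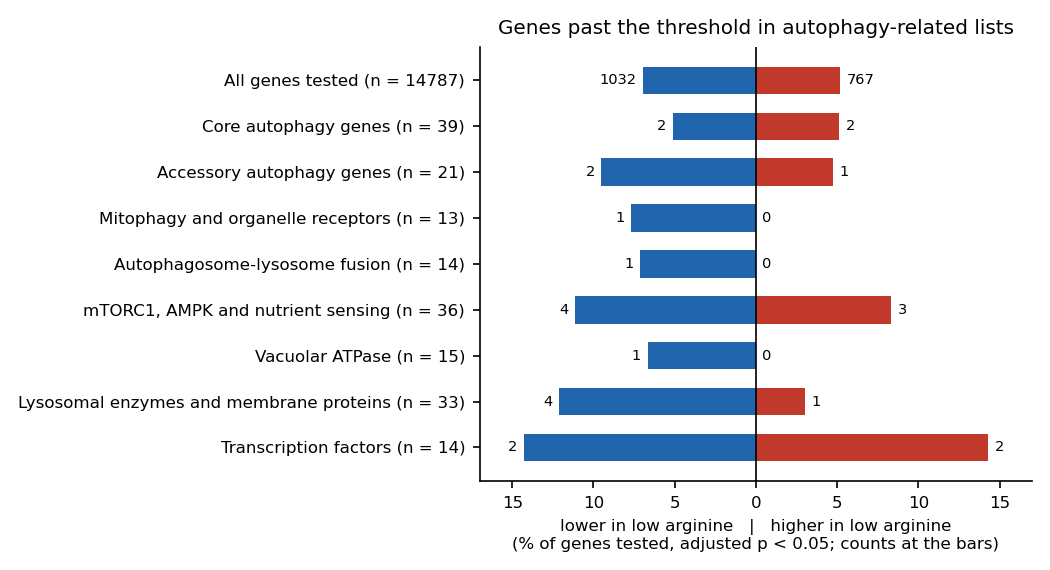
Percent of genes tested that passed an adjusted p of 0.05 as higher (right) or lower (left) in low arginine, for all genes, the core autophagy genes and 7 related lists, with the counts at the bars. The core autophagy genes had 2 in each direction of 39, beside 767 higher and 1032 lower of all 14787 genes.

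The labelled cell type was checked against its markers. The negative selection used antibodies to B220, MHC class II, CD11b, CD49b and CD8 alpha before culture, and CD4 cells were purified again after it. Cd3e and Cd4 read above 10 on average in both groups, and of 9 CD4 T cell markers only Trat1 passed the threshold. It rose by 2.93, from a mean of 6.08 in the controls to 9.01 in low arginine (limma adjusted p = 6.02e-04). Of 9 B cell markers 5 were dim and 0 of the 4 tested passed (limma, all at an unadjusted p above 0.05), the list's mean lying at 2.44 to 2.58 in the controls and 2.48 to 2.51 in low arginine. Myeloid and dendritic markers lay at 3.07 to 3.14 and 2.87 to 2.97, with 6 of 16 dim, Lyz2, Adgre1, Cd14 and H2-Aa among them. Of the 10 tested, 1 passed as lower, the MHC class II gene H2-Ab1, which fell by 3.06. The lower list means include this fall, while 6 of the 10 changes were above 0, with a median of 0.02. H2-Eb1, also of MHC class II, changed by 0.02 (limma adjusted p = 0.957). Cd68 (means 5.28 in the controls and 5.49 in low arginine) and Batf3 (4.61 and 3.89) lay above the dim limit, and neither passed. At an unadjusted p below 0.05 there were 3 of the 10, all lower. CD8 and NK markers lay at 3.49 to 3.70 and 3.35 to 3.43, with 3 of 9 dim and 1 of 6 past the threshold, Klrk1, which fell by 1.04 (adjusted p = 0.0134, and up to 0.065 when control 2 or low arginine 3 was left out). Unadjusted p was below 0.05 for 4 of those 6, 3 lower and 1 higher. Cd8b1 had means of 6.90 in the controls and 6.24 in low arginine without overlap, at an adjusted p of 0.063. Plasma cell markers lay at 3.11 to 3.17 and 2.83 to 2.96, and Prdm1, the 1 of 3 tested that passed, fell by 1.36. Those lower means include the fall of Prdm1, while the 3 changes had a median of -0.03 and a highest of 0.03. Neutrophil markers lay at 2.40 to 2.51 and 2.41 to 2.44, with 0 of 4 tested past limma's threshold or at an unadjusted p below 0.05. Of the erythroid markers only Klf1 was matched, at a change of -0.15 that did not pass. The part of these cell types in the autophagy genes' values was not tested. In bulk RNA, fewer cells of a type and less RNA per cell cannot be told apart.

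Of the mitosis genes, all 21 tested fell, their mean level being 7.84 to 7.90 in the controls and 6.57, 5.28 and 5.02 in low arginine 1, 2 and 3. The mean of the 39 autophagy genes was 6.08 to 6.21 and 6.14 to 6.17. Low arginine 1, nearest the controls for the mitosis genes, was also nearest for Atg9a, while for Ambra1 it was the farthest from them. For Atg10 it was also the farthest, though barely (4.72 against 4.71 in low arginine 3), and for Gabarapl1 low arginine 2 was nearest. The part of cell division in their changes was not tested.

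The number of autophagy genes past the threshold was 2 to 13 over the 15 alternatives. Without control 1 there were 7 autophagy genes (17.9%) beside 3325 genes in all (22.5%), the added ones being Atg2a, Wipi1 and Atg7. Without control 2 or low arginine 2 or 3 there were 2, Gabarapl1 and Atg10, beside 500, 509 and 592 genes (3.38%, 3.44% and 4%). Without control 3 or low arginine 1, Ambra1 dropped out and 3 remained (9.24% and 6.73% of all genes passed). The trended and robust prior and the replicate block each gave 3, beside 11.1% and 10.6% of all genes. With no dim filter there were 4 of 39, beside 7.88% of all genes, and with the dimmest 0.5 left out 4 of 37, beside 16.7%. Centring on the 75th percentile gave 3, beside 11.7%. With arrays weighted by their quality there were 13 (33.3%, against 37.3%). The added ones were Atg13, Atg2a, Atg2b, Wipi1, Atg5, Atg7, Atg4a, Map1lc3b and Tfeb. Control replicate 1 was the lowest control for 21 of the 39 genes (53.8%), against 37.5% of all genes, and the SD of the controls exceeded that of the low arginine arrays for 25 (64.1%, against 66.2%). The cause of these differences between arrays was not tested.

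**Figure D4:**
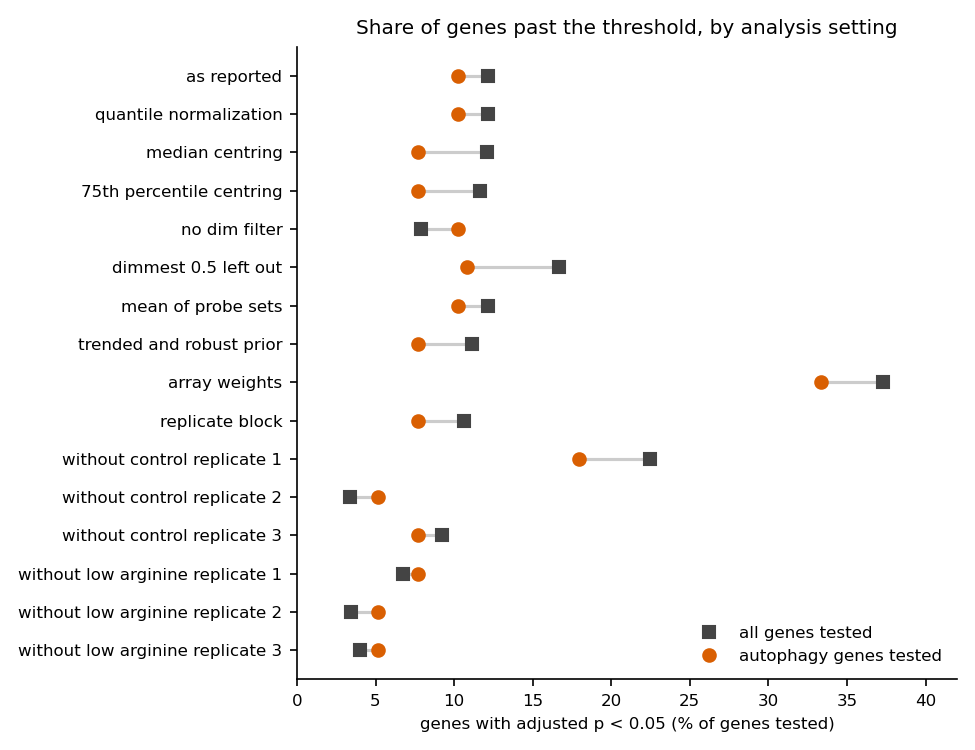
Percent of genes past an adjusted p of 0.05 under each analysis setting, for the autophagy genes (circles) and all genes tested (squares). The circles lie between 5.13% and 33.3% and the squares between 3.38% and 37.3%, both highest with array weights.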

How the data were processed

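RNA of 6 mouse CD4 T cell samples was hybridised to 1-colour whole-transcript arrays. The authors deposited log2 expression values per probe set, made with the oligo package per the submitters' processing notes. The sources used here do not give its version, nor how background, normalization and summarization were handled. The log base, also unstated, was read as 2 because values span 0.956 to 12.41. At any rank the arrays were within 0.199 of each other. Scanner signals and detection calls were not used here.

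Of 41345 probe sets, 23521 carried exactly 1 gene symbol, 1814 several and 16010 none in the platform annotation. The brightest probe set by mean over the 6 arrays stood for its gene. The dimmest genes by mean (a share of 0.333, 7393 genes) was left out. The low arginine and control groups were compared by limma (version 3.58.1, R 4.3.3) through lmFit and eBayes with no covariate, two-sided, on 4 residual plus 3.69 prior degrees of freedom, with Benjamini-Hochberg adjustment over all 14787 genes and a threshold of 0.05. Intervals are limma's, at 95%. The fit was tested on simulated data with known rises and independent normal noise. Those data lacked falls and the differences between arrays seen here, so they do not check how the fit handles them. Figures were drawn with matplotlib 3.10.9.

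The 40 genes and the further lists (15 lists, 233 of 258 symbols matched) were chosen with earlier results of these data known. All 40 were to be accounted for, with values on every array for genes past the threshold and for Ulk1, Becn1, Map1lc3b, Sqstm1, Tfeb, Tfe3 and Lamp1. From each list at least the largest changes past the threshold were named. Of 5 or fewer calls all were named, and values on every array of Atg13, Atg7, Gabarap and Atg4a were added after they were seen. Alternatives changed the scaling (quantile normalization, or median or 75th percentile centring), the dim filter (none, or a share of 0.5 left out), probe sets (their mean) or the model (trended and robust prior, array weights, replicate block), or dropped 1 array at a time. The number of arrays limits the precision.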

Additional observations from a re-analysis of the deposited data

How the results depend on the processing

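The 2 rises among autophagy genes became 1 with median centring, 75th percentile centring, a trended and robust prior or the replicate block, Ambra1 being lost each time, and 7 with array weights. The 2 falls became 6 with array weights. Leaving out single arrays gave 1 to 3 rises, 1 to 4 falls and 500 to 3325 genes in all, and array weights gave 5514 genes in all. Centring on the 75th percentile took the median change of all genes from 0.01 to -0.05 and the split of all calls from 767 higher and 1032 lower to 535 and 1190. The median change of the autophagy genes stayed between -0.032 and 0.05 in all alternatives. No gene past the threshold changed sign, and 26 of 39 genes kept their sign in all 15 alternatives. Signs turned for Atg16l2 (-0.012, -0.0082 and -0.032 after quantile normalization, median and 75th percentile centring, -0.0077 with array weights), Atg4d (-0.0084 and -0.0082 after quantile normalization and 75th percentile centring), Gabarap (0.031 after quantile normalization, 0.015 with array weights), Nbr1 (-0.011) and Tax1bp1 (-0.00059) with 75th percentile centring, and Atg12 (-0.0068) and Lamp2 (0.077) with array weights. Leaving out single arrays turned the sign at an end of the range for Becn1 (-0.21 to 0.051), Atg16l2 (-0.15 to 0.20), Nbr1 (-0.047 to 0.16), Pik3c3 (-0.054 to 0.026), Atg4b (-0.080 to 0.017), Ulk2 (-0.23 to 0.033), Map1lc3a (-0.16 to 0.091), Gabarap (-0.032 to 0.047) and Gabarapl2 (-0.12 to 0.0038). The causes were not tested. Of 583 member results under alternatives, 532 kept direction and side of the threshold, and of 450 counts in the further lists 366 stayed within 1.5 times. Those counts include the marker lists, and a count that stayed at 0 was taken as within 1.5 times. Of the 22 calls in the 7 lists around the core machinery, 4 held whichever array was left out. Same-numbered arrays of the groups had deviations from their group means that correlated at 0.12, 0.06 and 0.14, each array correlating best with its own number. This is a hint from the data and does not pair them. The replicate block gave 3 autophagy genes past the threshold and 1568 genes in all. With no detection calls, levels near the dim limit of 2.48 (Wipi1, Map1lc3a, Tfeb, Gabarapl1 in low arginine) give uncertain sizes of change.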

Other observations

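Over the 15 vacuolar ATPase genes, control replicate 1 had a mean level of 6.85, against 6.43 in each of the other controls and 6.57 to 6.67 in the low arginine arrays, so the low arginine arrays lay between the controls. The lysosomal enzymes and membrane proteins had means of 6.02 to 6.09 in the controls and 5.85 to 5.92 in low arginine, without overlap. For the autophagosome-lysosome fusion genes the controls lay at 6.09 to 6.43 and the low arginine arrays at 6.09 to 6.20, with control replicate 1 the highest and low arginine replicate 1 the lowest, just under the other controls.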
